A study of Mus musculus with 18 samples.

Results

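The comparison described here sets mouse bone marrow-derived macrophages (BMDMs) given interferon-gamma (IFNg) under hypoxia against the same kind of cells given IFNg alone, with 3 RNA-seq libraries in each group, 6 of the 18 libraries of the series, chosen by the treatment in their labels. Precursors from the marrow mature into such macrophages in the dish. The labels call the cells WT and give 18 h as the treatment time. The other 4 groups, also of 3 libraries each, are an untreated control, IFNg with tumour necrosis factor (TNF), IFNg with interleukin-1 beta and IFNg with lipopolysaccharide (LPS), and of these the TNF and LPS groups are used here for direct comparison. Both groups of the main comparison carry IFNg, so the values describe what differed when hypoxia was added to IFNg, and hypoxia without IFNg was not among the groups. Oxygen level, IFNg dose, mouse strain and age are not in the labels. Nor is the origin of the 3 replicates (different mice, dishes or repeat preparations), and p-values therefore reflect only how far these libraries differ, which may be technical.

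Cells sense oxygen through a short chain of proteins. The prolyl hydroxylases (Egln1, Egln2 and Egln3) use molecular oxygen to hydroxylate the alpha subunits of hypoxia-inducible factor (HIF), and the ubiquitin ligase component Vhl binds the hydroxylated subunit and marks it for destruction. When oxygen falls, the alpha subunit is kept, pairs with Arnt and binds short DNA motifs near genes for glucose uptake, glycolysis, blood vessel growth, matrix enzymes and the prolyl hydroxylases themselves. Macrophages meet low oxygen in wounds, infected tissue and tumours, and HIF-1 is also known to act in macrophages activated at normal oxygen.

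Of 11563 genes tested, 2918 (25.2%) differed between hypoxia plus IFNg and IFNg alone at an adjusted p under 0.05 in edgeR's quasi-likelihood test, 1556 (13.5%) higher and 1362 (11.8%) lower with hypoxia. The change was at least 2-fold for 563 of the higher and 611 of the lower genes, and the median log2 fold change over all tested genes was -0.01. The 6 libraries held between 12855923 and 17568777 counts. Gene positions are those of the GENCODE M21 annotation of GRCm38, the assembly also called mm10. Levels are given below as CPM, counts relative to library size scaled with the trimmed mean of M values (TMM), in the order of replicates 1, 2 and 3, and log2 fold changes (hypoxia plus IFNg minus IFNg) carry their standard error (SE). Relative to the read totals that the authors' RPKM values imply, the median over all genes shifts by -0.24 on the log2 scale, and the split becomes 888 higher and 2564 lower, so that 25.7% of the changed genes are higher in place of 53.3%. All 888 were also higher, and all 1362 lower genes also lower, under both scalings. Where that scaling moves a list's count by more than 1.5 times, its count under RPKM totals is given with the list. For 4998 of all tested genes (43.2%) the CPM values of the hypoxia libraries and the IFNg libraries did not overlap, and a gap between the groups at a single gene is to be read against that share. RNA per culture is not measured here, and fewer cells cannot be told apart from less RNA per cell.

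**Figure D1:**
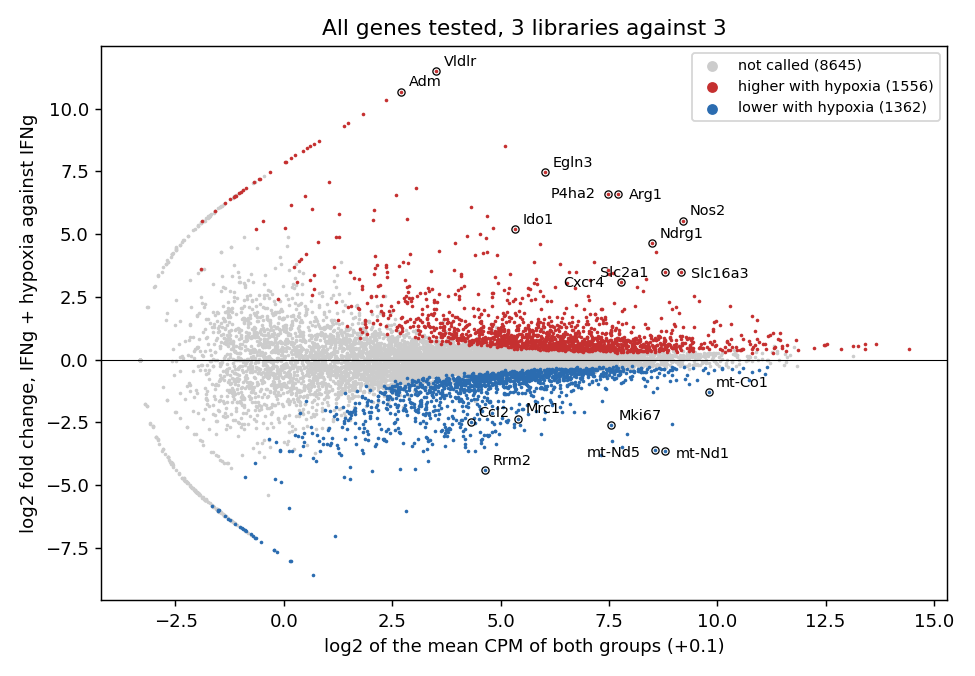
Each point is a tested gene (11563 in all); the horizontal axis is the log2 of its mean CPM over both groups plus 0.1, the vertical axis its log2 fold change, hypoxia plus IFNg against IFNg, and colour marks an adjusted p under 0.05. Vldlr and Adm lie at the upper left edge, Egln3, P4ha2 and Arg1 rose strongly at high levels, and mt-Nd1 and mt-Nd5 lie near -3.6.

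The 15 largest rises among genes of at least 5 CPM were led by genes that were silent or nearly so with IFNg alone. Vldlr, a receptor for very-low-density lipoprotein, had no count in the IFNg libraries and 28.5, 24.2 and 15.4 CPM with hypoxia (adjusted p = 0.002). With the 0 set at 3 counts over the group, the ratio was 389-fold. Such a ratio leaves out the spread between libraries and is not a lower limit of the fitted fold change. Adm, the vasodilator adrenomedullin, also had no IFNg count and reached 15.6, 11.4 and 11.7 CPM (adjusted p = 1.1e-05), a ratio of 222-fold. The same ratio was 172-fold for the mitochondrial adenylate kinase Ak4, 117-fold for the transcriptional cofactor Cited1, 91.9-fold for the secreted glycoprotein Stc2 and 85.5-fold for Smtnl2. The IFNg libraries were at 0 for all 6 genes. DESeq2 did not call Cited1. The other 9 were Mgarp, Egln3, Bcar1, Arg1, P4ha2, Heatr9, Rcor2, Atp7b and Plod2, with log2 fold changes from 5.71 (Plod2) to 8.53 (Mgarp). Several of the 15 were also counted with TNF, which was given without hypoxia, such as Mgarp at 41.3 CPM and Egln3 at 37.5 CPM. Mgarp, Ak4 (8.74 CPM with TNF) and Adm (5.95 CPM) did not pass the test between hypoxia and TNF (adjusted p = 0.35, 0.83 and 0.28). Stc2, Smtnl2, Bcar1 and Atp7b did not pass it either (adjusted p = 0.28, 0.057, 0.44 and 0.996). Heatr9 was lower with hypoxia than with TNF (log2 difference -1.45 ± 0.44, adjusted p = 0.011). Vldlr, Cited1, Egln3, Arg1, P4ha2, Rcor2 and Plod2 were higher with hypoxia than with TNF. Among the 15 largest falls, Rrm2, Tk1, Spc24, Neil3, Chek1, Mcm2, Esco2, Kif2c and Sgo1 serve DNA replication, repair or mitosis, mt-Nd6 and mt-Nd1 are mitochondrial transcripts, and Mns1 and Kcnj10 belong to neither group. The Sgo1 call is lost without hypoxia replicate 1 (log2 fold change -3.2). Rrm2, a subunit of ribonucleotide reductase, fell from 55.1, 47.2 and 40.8 CPM to 3.31, 1.45 and 1.85 CPM.

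The genes that sense oxygen changed unevenly. Of 8 tested HIF subunits, hydroxylases and the ligase component, 3 were higher with hypoxia and 0 lower, against 25.2% of all tested genes changed; their median log2 fold change was 0.84. Hif1a (ENSMUSG00000021109, chr12:73901375-73947530), the HIF-1 alpha subunit, was at 304, 338 and 343 CPM with IFNg and 362, 351 and 383 CPM with hypoxia (log2 fold change 0.15 ± 0.11, adjusted p = 0.34). The hypoxia libraries lay above the IFNg libraries, but by less than the test calls. Epas1, the HIF-2 alpha subunit, was barely counted (0.416 CPM with IFNg and 1.9 CPM with hypoxia, adjusted p = 0.21), and Hif3a and Arnt2 had too few counts to test. Arnt, the partner subunit, was at 70.7 CPM and 92 CPM (adjusted p = 0.056); it was called higher by DESeq2 (adjusted p = 0.0444), with a replicate block (0.0419), with the stricter filter (0.0456), when only these 2 groups were fitted (0.0221) and without IFNg replicate 2 (0.0337). Among the prolyl hydroxylases, Egln3 (ENSMUSG00000035105, chr12:54178981-54203860) stood at 0.104, 1.24 and 0.889 CPM with IFNg and at 132, 118 and 137 CPM with hypoxia, a log2 fold change of 7.47 ± 0.76 (adjusted p = 2.4e-06). Egln1 went from 21.8, 22.1 and 15.4 CPM to 175, 158 and 167 CPM (8.41-fold, adjusted p = 9.3e-13). Neither gene overlapped between the groups, as held for 43.2% of all tested genes. Egln2 (log2 fold change -0.10 ± 0.17, adjusted p = 0.72) and the asparaginyl hydroxylase Hif1an (-0.02 ± 0.27, adjusted p = 0.97) were not called. Vhl rose from 3.7, 13.1 and 5.13 CPM to 15.8, 15.5 and 22.9 CPM (log2 fold change 1.30 ± 0.42, adjusted p = 0.025); its call is lost under RPKM totals, where the log2 fold change is 1.05, and without IFNg replicate 1 (0.98), IFNg replicate 3 (1.10) or hypoxia replicate 3 (1.09).

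Of 42 tested hypoxia targets outside glycolysis, 31 rose and 2 fell, with a median log2 fold change of 2.25. Over all tested genes 13.5% were higher and 11.8% lower. The list was compiled from genes known to respond to low oxygen and was chosen with earlier results of these data known. For the 6 named genes that rose most by log2 fold change and whose window holds the core of the HIF binding motif, the stretch of RefSeq promoter (GRCm38.p6) around that core is printed to show where it lies; capitals mark ACGTG or GCGTG, or their reverse complements CACGT and CACGC, and each stretch reads 5′ to 3′ on the gene's strand.
Adm, chr7:110627573-110627637, plus strand: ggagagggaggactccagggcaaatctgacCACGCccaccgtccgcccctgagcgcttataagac
Ak4, chr4:101419223-101419287, plus strand: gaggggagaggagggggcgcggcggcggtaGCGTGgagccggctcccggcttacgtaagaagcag
Cited1, chrX:102252182-102252240, minus strand: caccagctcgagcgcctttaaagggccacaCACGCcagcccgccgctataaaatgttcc
Stc2, chr11:31370258-31370311, minus strand: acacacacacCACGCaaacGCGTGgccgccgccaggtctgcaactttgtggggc
Mgarp, chr3:51396732-51396796, minus strand: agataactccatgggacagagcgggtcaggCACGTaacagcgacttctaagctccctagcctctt
Egln3, chr12:54204069-54204124, minus strand: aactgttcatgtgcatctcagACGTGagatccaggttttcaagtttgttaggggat
The 250 bases before each start were searched on both strands, and a CACGTG palindrome counts once on each strand. A core was present in 38.6% of all 32851 promoter windows, in 55.3% of the windows of tested genes, in 57.9% of those of genes higher with hypoxia and in 53.6% of those of genes lower with hypoxia. It was present in 25 of 32 windows (78.1%) of the targets that rose and in 35 of 47 windows (74.5%) of the tested glycolysis list. The share was 72% of 50 windows for all tested targets, whether they rose or not, and 70% of 20 windows for the 15 largest rises. It was 65.2% of 46 windows for the tested cell cycle list, most of whose genes fell, and 60% of 10 windows for the 15 largest falls, both also above the share of tested genes. These shares are descriptions of windows that differ in base composition, and a match is not a binding site.

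By role, the secreted factors among the targets held 4 genes higher of 6 tested. The counts by role, here and below, are to be read against 13.5% higher and 11.8% lower of all tested genes. Vegfa, the growth factor for blood vessels, went from 12.8, 15.1 and 10.3 CPM to 75.1, 44.6 and 61.5 CPM (log2 fold change 2.24 ± 0.22, adjusted p = 1.6e-08). No hypoxia library came as low as any IFNg library. Angptl4 and Edn1 were low in both groups and not called, at 2.45 CPM and 0.364 CPM with IFNg and 2 CPM and 0.199 CPM with hypoxia. Of the 11 genes for signalling and transcription, 10 rose. Ndrg1, a stress-response gene, went from 25.1, 26.5 and 31.6 CPM to 756, 617 and 704 CPM, 25-fold (adjusted p = 2.3e-17). The same direction held for Ankrd37 (32.5-fold), for Ddit4, an inhibitor of mTORC1 (17.3-fold), for the repressors Bhlhe40 (17.8-fold), Bhlhe41 (4.04-fold) and Mxi1 (5.92-fold), for the corepressor Rcor2 (log2 fold change 6.10), and for Rora, Zfp395 and Ccng2 (1.37 to 2.31). Cited2, which competes with HIF for its coactivator, was at 60.7 CPM and 64.3 CPM (adjusted p = 0.86).

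Enzymes that modify collagen and fold protein followed, with 5 of 6 higher. P4ha2, a collagen prolyl hydroxylase subunit, went from 4.9, 1.53 and 4.58 CPM to 386, 344 and 332 CPM (log2 fold change 6.59 ± 0.47, adjusted p = 4.7e-08). P4ha1 rose 4.03-fold, the lysyl hydroxylases Plod2 and Plod1 rose by 5.71 and 0.89 on the log2 scale, and Ero1l, which drives disulfide formation, rose 11.9-fold. Lox, the lysyl oxidase, was at 0.17 CPM and 1.19 CPM and was not called. Of the mitophagy and cell death genes 1 of 4 tested rose, Fam162a, from 11.2 CPM to 155 CPM (13.9-fold). Bnip3, a mitophagy receptor known as a hypoxia target, was at 0.42 CPM and 1.37 CPM, and Bnip3l was too low to test; both have near-identical copies in the genome and their counts are uncertain. Car9, the carbonic anhydrase often used to mark hypoxic cells, was at 4.22 CPM and 4.41 CPM (adjusted p = 0.95).

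Among the metabolic and other targets, 8 of 10 rose and 2 fell. Cxcr4, the receptor for Cxcl12, went from 42.6, 41.4 and 53.9 CPM to 414, 381 and 393 CPM (log2 fold change 3.11 ± 0.14, adjusted p = 6.2e-15). In the untreated control it was at 439.6 ± 67.7 CPM (SD, n = 3), and with hypoxia at 396 ± 16.3 CPM. Of the 8 that rose, Gys1 (glycogen synthase) was 10.8-fold, Gbe1 (glycogen branching enzyme) 4.76-fold and Pygl (glycogen phosphorylase) 2.78-fold higher. Hmox1, heme oxygenase, rose from 164, 152 and 164 CPM to 853, 690.2 and 836 CPM (adjusted p = 4.2e-12). Hilpda, a lipid droplet protein that blocks lipolysis, rose 18.5-fold, and Narf rose by 0.75 on the log2 scale. The demethylase genes of the list, with 3 of 4 higher, are described with their family below. The pair that fell were the transferrin receptor Tfrc, from 18.8 CPM to 7.02 CPM (adjusted p = 1.3e-04), and the nucleoside transporter Slc29a1, from 47.7 CPM to 22.2 CPM (adjusted p = 5.8e-05). Tfrc is known as a gene that HIF can raise in other cells, and Slc29a1 as one that HIF can repress.

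**Figure D2:**
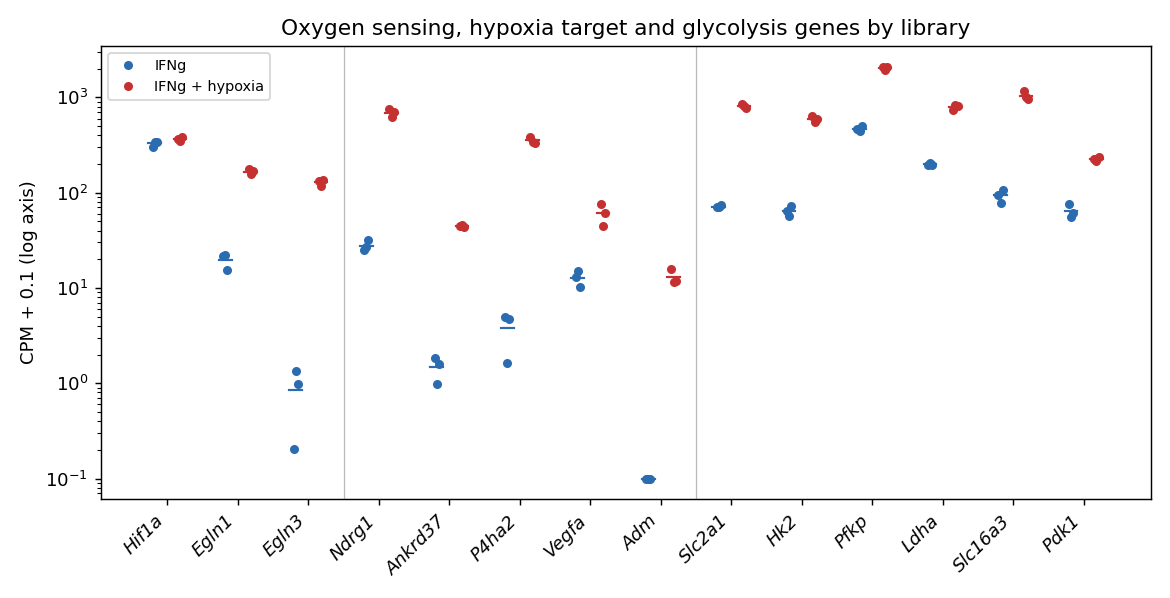
CPM plus 0.1 on a log axis for oxygen sensors, hypoxia targets and glycolysis genes (separated by grey lines) in each of the 6 libraries; points are libraries and bars are group means. The hypoxia libraries lie above the IFNg libraries for every gene drawn, by a wide gap for Egln3, Ndrg1, P4ha2 and Slc2a1, while the Hif1a points lie close together and Hif1a was not called.

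Glycolysis rose along most of its length, from glucose uptake to lactate export. Of 29 tested genes, 16 rose and 1 fell, against 13.5% higher and 11.8% lower of all tested genes. The median log2 fold change of the list was 1.42, and under RPKM totals 15 rose and 2 fell. Slc2a1, the main glucose transporter of these cells, went from 70.0, 70.5 and 73.6 CPM to 842, 821 and 769 CPM (11.4-fold, adjusted p = 1.8e-15), Slc2a3 was not called and Slc2a6 fell from 255 CPM to 169 CPM. Hexokinase Hk2 went from 64.1, 56.2 and 72.5 CPM to 633, 549 and 589 CPM and Hk1 rose 2.48-fold, while Hk3 held 2337 CPM and 2285 CPM. The phosphofructokinases Pfkl and Pfkp rose 6.63-fold and 4.37-fold, and Pfkfb3, which makes their activator, rose 4.4-fold. Elsewhere in the pathway, Gpi1, Aldoa, Aldoc, Tpi1, Eno1 and Pkm rose by 1.42 (Pkm) to 2.54 (Aldoc) on the log2 scale. Ldha, which makes lactate, went from 196, 203 and 197 CPM to 732, 838 and 811 CPM (3.99-fold). The lactate exporter Slc16a3 went from 94.5, 78.1 and 107 CPM to 1173, 997 and 965 CPM (11.2-fold, adjusted p = 1.0e-12), and Slc16a1 was at 8.46 CPM and 16.7 CPM, a rise whose call is lost under RPKM totals and in 4 of the 6 fits that leave out a library (without IFNg replicate 1 or 3, or hypoxia replicate 2 or 3). Pdk1, the kinase that shuts pyruvate dehydrogenase, went from 76.2, 55 and 61.3 CPM to 225, 216 and 237 CPM (adjusted p = 1.2e-10), and Pdk2 and Pdk3 were not called. Pfkm, Pfkfb1, Pfkfb2, Pfkfb4, Eno2, Eno3 and Ldhb were also not called, with log2 fold changes from -0.49 (Eno2) to 0.52 (Ldhb). Of these, Pfkfb4 was called lower under RPKM totals (log2 fold change -0.63, adjusted p = 0.011) and Pfkm higher when only these 2 groups were fitted (0.44, adjusted p = 0.0063). Pgk1 was at 0.227 CPM and 1.9 CPM, and Gapdh and Pgam1 were too low to test in these counts although cells use them at high levels; these 3 genes have near-identical copies and give no usable value here.

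Genes of the tricarboxylic acid (TCA) cycle moved the other way. Of 25 tested, 13 fell and 0 rose, with a median log2 fold change of -0.32; the count is 7 without IFNg replicate 2 and 7 without hypoxia replicate 3. Idh3a, a subunit of isocitrate dehydrogenase, fell from 34, 37.6 and 36.4 CPM to 8.94, 14 and 11.9 CPM (adjusted p = 3.0e-06) and Idh2 from 35.4, 38.5 and 40.9 CPM to 15.8, 10.6 and 12.9 CPM (adjusted p = 1.4e-06), each to under every IFNg library. The other falls were smaller, such as citrate synthase Cs (log2 fold change -0.44 ± 0.11) and the succinate dehydrogenase subunit Sdhb (-0.63 ± 0.10). Against 11.8% lower and 13.5% higher of all tested genes, 14 of 67 nuclear-encoded subunits of the respiratory chain fell and 2 rose (median -0.26, 1 rose by DESeq2). The number lower was 33 under RPKM totals, 25 when only these 2 groups were fitted, 7 without IFNg replicate 1, 8 without IFNg replicate 3 and 4 without hypoxia replicate 3. Ndufa4 fell from 47.2 CPM to 22.1 CPM (adjusted p = 1.7e-05) and the complex I subunit Ndufs8 from 66.9 CPM to 31.9 CPM (adjusted p = 5.1e-06). The rises were Cox4i2, the cytochrome oxidase isoform tied to low oxygen, from 0.0521, 0 and 0.82 CPM to 20.5, 12.9 and 7.88 CPM (adjusted p = 0.0038, not called by DESeq2), and Ndufv3 (1.85-fold). Cox4i1, the usual isoform, was at 513 CPM and 503 CPM (adjusted p = 0.91).

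Transcripts of the mitochondrial genome itself fell much further. All 7 that were well counted fell, of 10 tested, with a median log2 fold change of -2.91 over the 10. The complex I transcript mt-Nd1 (chrM:2751-3707) went from 830.2, 926 and 702 CPM to 64.7, 67.2 and 65.8 CPM, 12.4-fold lower (log2 fold change -3.64 ± 0.23, adjusted p = 4.1e-10). The fall was 9.44-fold for mt-Nd2, 11-fold for mt-Nd4, 12.1-fold for mt-Nd5 and 13.8-fold for mt-Nd6. It was 5.98-fold for mt-Cytb, the cytochrome b transcript of complex III, and 2.44-fold for mt-Co1, of complex IV, which went from 1211, 1547 and 1032 CPM to 450.2, 595 and 505 CPM. Of the 7, mt-Co1 had the smallest fitted fall; differences between transcripts were not tested. These 7 together made up 0.50%, 0.60% and 0.39% of all counts in the IFNg libraries and 0.07%, 0.09% and 0.08% in the hypoxia libraries. In the 15 libraries outside the hypoxia group, including the control, TNF, interleukin-1 beta and LPS groups, mt-Nd1 ranged from 430.5 to 1224 CPM, against 64.7 to 67.2 CPM with hypoxia, and for all 7 transcripts every hypoxia library lay below all 15 others, as it did for 357 (3.09%) of all tested genes. mt-Co2, mt-Co3 and mt-Atp6 had under 1 CPM in both groups. mt-Nd5 and mt-Nd6 overlap at their ends on opposite strands, and the strand setting of the counting is unknown here. Reads from the overlap or from the opposite strand may therefore be counted for the wrong gene of the pair. Of 39 tested proteins of the mitochondrial ribosome, 8 fell and 0 rose, against 11.8% lower and 13.5% higher of all tested genes. The number lower was 5 without hypoxia replicate 3 and 15 under RPKM totals, and Mrpl2 was at 38.3 CPM and 19.3 CPM. Of 25 tested cytosolic ribosomal proteins 0 were called by edgeR in the fit of all 18 libraries, 0 had an unadjusted p under 0.05 and 0 were called by DESeq2, while 3 were higher when only these 2 groups were fitted.

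**Figure D3:**
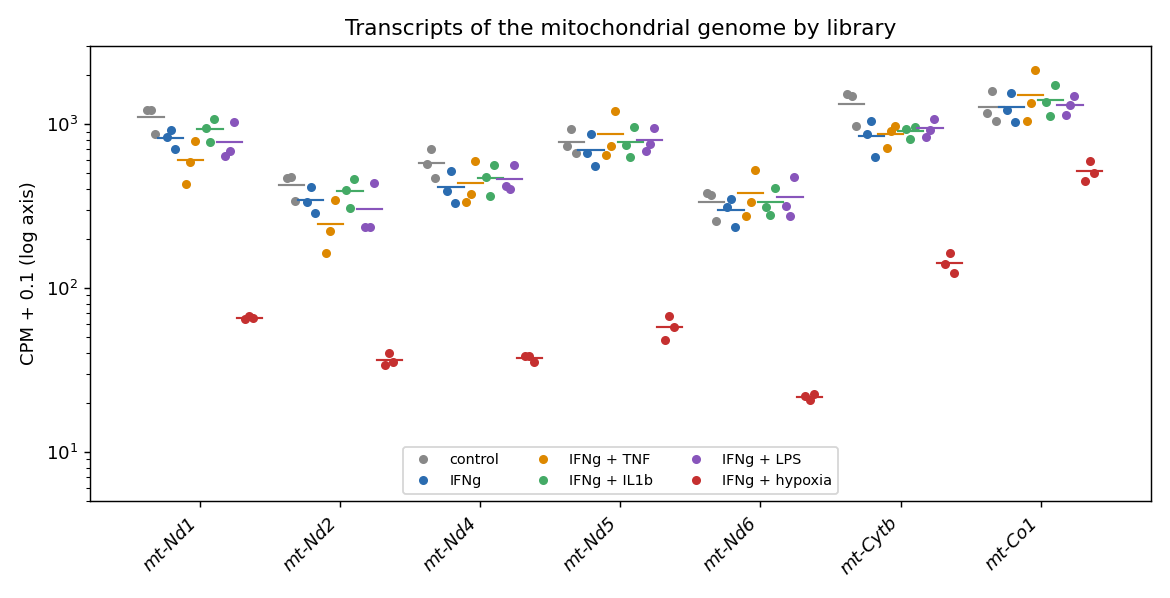
CPM plus 0.1 on a log axis for the 7 well-counted mitochondrial transcripts in all 18 libraries; points are libraries and bars are group means. The hypoxia libraries lie below all 15 others for each transcript, at 64.7 to 67.2 CPM for mt-Nd1 against at least 430.5 CPM elsewhere.

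Part of the program that IFNg switches on was higher when hypoxia was added. Of 33 tested IFNg response genes, 21 rose and 1 fell, with a median log2 fold change of 0.41. Over all tested genes 13.5% were higher and 11.8% lower. Under RPKM totals 10 of the list rose and 2 fell, against 888 higher and 2564 lower of all 11563 tested genes. Irf8 rose from 527 CPM to 855 CPM (adjusted p = 2.5e-05) and Irf1 from 1089 CPM to 1438 CPM (adjusted p = 0.0028), with the Irf1 call lost under RPKM totals. Ido1, which breaks down tryptophan, changed most, from 2.4, 1.88 and 2.19 CPM to 96.7, 71.3 and 68.6 CPM (log2 fold change 5.19 ± 0.42, adjusted p = 1.2e-08). Cxcl9 and Cxcl11, chemokines that draw T cells, rose 2.88-fold and 2.96-fold. Cd274, which encodes the checkpoint ligand PD-L1, went from 289, 278 and 322 CPM to 739, 686 and 808 CPM (2.51-fold, adjusted p = 1.3e-08). Among the guanylate-binding proteins, which attack intracellular microbes, Gbp10 rose 2.75-fold and Gbp2b 1.77-fold, while Gbp3, Gbp6 and Gbp8 were not called (Gbp8 was higher when only these 2 groups were fitted, adjusted p = 0.0215). Serpina3g was the gene that fell, from 768 CPM to 447 CPM. The guanylate-binding protein, Tgtp and Serpina3 families hold near-identical copies, and their counts may be split between members.

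Of 12 tested genes of MHC class II presentation, 7 rose and 0 fell (median 0.55, with 6 higher under RPKM totals). The class II and class I counts are to be read against 13.5% higher and 11.8% lower of all tested genes. H2-Ob, a subunit of the peptide-loading regulator H2-O, went from 15.9, 10.8 and 15 CPM to 82.1, 73.3 and 72 CPM (5.45-fold, adjusted p = 1.3e-07). H2-Ab1 and the invariant chain Cd74 rose 1.78-fold and 1.55-fold. Ciita, the master activator of the class II genes, was at 741, 709 and 798 CPM and 801, 768 and 784 CPM (adjusted p = 0.78), and was not called. For MHC class I processing, 8 of 16 rose and 1 fell; the number higher is 1 under RPKM totals and 5 without IFNg replicate 1, hypoxia replicate 1 or hypoxia replicate 2, and the number lower is 2 under RPKM totals and when only these 2 groups were fitted. Psmb10, an immunoproteasome subunit, was the gene that fell, from 482 CPM to 296 CPM. Against 13.5% higher and 11.8% lower of all tested genes, 2 of 30 genes of the type I interferon response rose and 5 fell (median -0.23). The number lower was 19 under RPKM totals, 12 when only these 2 groups were fitted, 2 without IFNg replicate 3, and 3 without hypoxia replicate 1 or hypoxia replicate 3, and the number higher was 1 under RPKM totals and without IFNg replicate 1, IFNg replicate 2 or hypoxia replicate 3. Ifit3b fell from 26.8 CPM to 13 CPM, a call lost without hypoxia replicate 3, and Ifi205 rose from 60.9 CPM to 116 CPM.

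Inflammatory genes went in both directions, to be read against 13.5% higher and 11.8% lower of all tested genes. Of 25 tested, 6 rose and 5 fell, with 4 higher and 1 lower of 12 cytokines and 2 higher and 4 lower of 13 chemokines; whether these kinds differ was not tested. The monocyte chemokine Ccl2 fell from 45.1, 27.9 and 28.5 CPM to 6.29, 2.89 and 8.65 CPM (log2 fold change -2.50 ± 0.43, adjusted p = 4.6e-04). Ccl3, Ccl4 and Ccl12 fell by 2.58-fold, 3.41-fold and 3.1-fold, and Tnf from 29.4, 26.5 and 23.4 CPM to 17.4, 12.4 and 14.6 CPM (adjusted p = 0.0051). Ccl5 went up, from 108, 109.7 and 109.8 CPM to 355, 323 and 251 CPM (adjusted p = 5.7e-09), as did Cxcl16 (2.18-fold), Il15 (3.04-fold), Tnfsf9 (4.02-fold) and the interleukin-1 receptor antagonist Il1rn (2.33-fold). Il1b went from 1.36, 2.65 and 2.73 CPM to 9.41, 4.34 and 5.71 CPM (adjusted p = 0.02), a call lost without IFNg replicate 1 or hypoxia replicate 1. Il6 and Il12b had under 1 CPM in both groups. Of 22 genes of the NF-kappaB pathway, 8 rose and 0 fell (median 0.44). Ier3 went from 2.29, 1.24 and 1.5 CPM to 51.9, 53.4 and 40.5 CPM (28.5-fold, adjusted p = 2.2e-08), and the feedback regulators Tnfaip3, Nfkbiz and Nfkbia rose 2.48-fold, 2.4-fold and 1.77-fold.

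Arg1 and Nos2, whose enzymes compete for arginine, both rose. Arg1 (ENSMUSG00000019987, chr10:24915221-24927484), arginase, which makes ornithine and urea, went from 3.86, 4.12 and 4.72 CPM to 428, 383 and 430.3 CPM (log2 fold change 6.61 ± 0.33, adjusted p = 1.1e-10). Nos2, the inducible nitric oxide synthase, went from 19, 22.1 and 33.6 CPM to 1287, 970.0 and 1209 CPM (log2 fold change 5.54 ± 0.25, adjusted p = 5.0e-12). In the control libraries Arg1 had no count and Nos2 averaged 0.601 CPM. The arginine transporter Slc7a2 rose from 6.32 CPM to 38.4 CPM, while Ass1, Asl and Odc1 were not called. In all, 4 of 10 genes of this list rose and 1 fell. Of 10 genes for itaconate and prostaglandin synthesis, 4 rose and 3 fell. Over all tested genes 13.5% were higher and 11.8% lower. Ptgs2, the inducible cyclooxygenase, went from 21.7, 27.5 and 21 CPM to 107, 116 and 136 CPM (5.09-fold, adjusted p = 1.2e-10). Acod1, which makes itaconate, rose 1.87-fold, and Hpgd, which breaks prostaglandins down, fell from 8.76 CPM to 1.23 CPM.

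**Figure D4:**
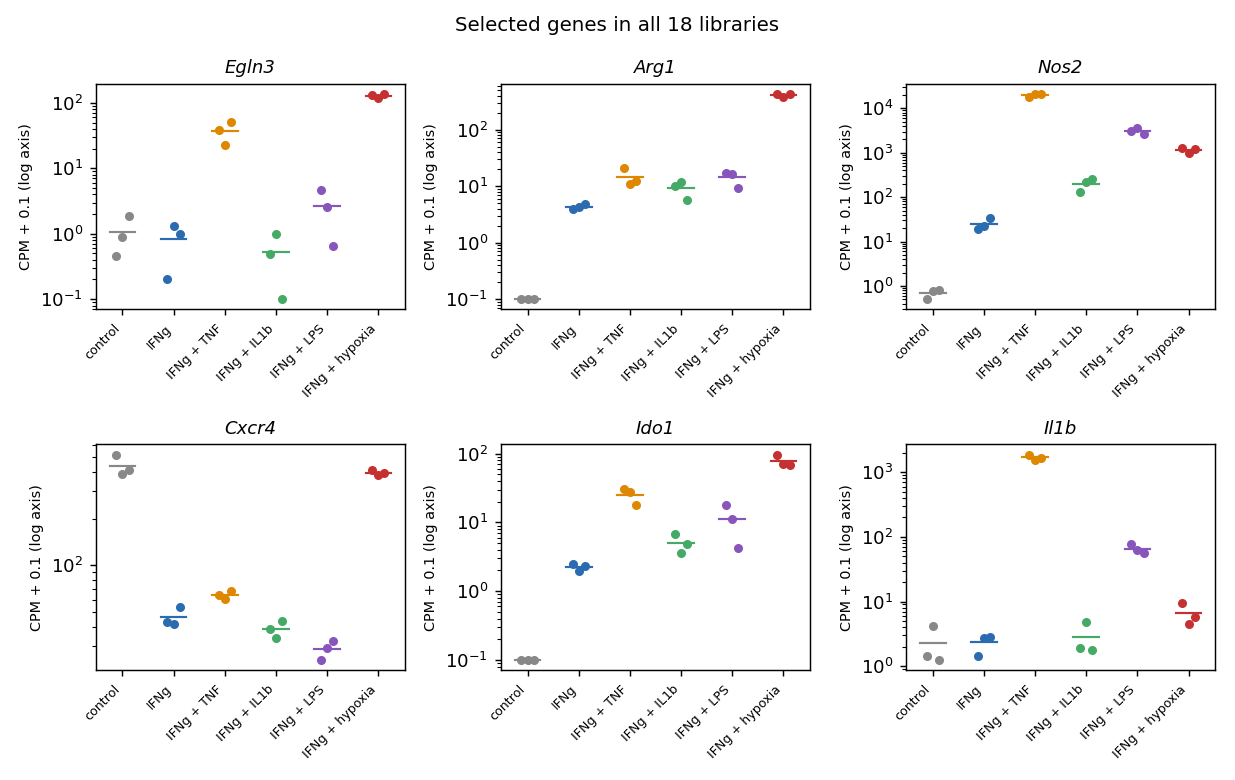
CPM plus 0.1 on a log axis for Egln3, Arg1, Nos2, Cxcr4, Ido1 and Il1b in the 3 libraries of each of the 6 groups; points are libraries and bars are group means. Egln3, Arg1 and Ido1 are highest in the hypoxia libraries, Nos2 and Il1b are higher with TNF and with LPS than with hypoxia, and Cxcr4 is high in the control and hypoxia groups.

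Set directly against the other stimuli, hypoxia plus IFNg differed from IFNg plus TNF in 4514 genes (39.0%), 2324 higher (20.1%) and 2190 lower (18.9%), and from IFNg plus LPS in 3467 genes (30.0%), 1798 higher (15.5%) and 1669 lower (14.4%). Under RPKM totals the split against LPS becomes 1319 higher and 2457 lower. Both comparisons use the same hypoxia libraries as the comparison with IFNg, so the values are given side by side and not as separate evidence. Arg1 was at 14.7 ± 5.77 CPM with TNF and 14.2 ± 4.33 CPM with LPS (SD, n = 3 each), and at 414 ± 26.6 CPM with hypoxia, log2 differences of 4.81 ± 0.30 (adjusted p = 3.9e-10) and 4.86 ± 0.30 (adjusted p = 9.2e-10). Nos2 had the opposite order, at 20102 ± 1774 CPM with TNF, 3091 ± 425 CPM with LPS and 1155 ± 165 CPM with hypoxia (log2 differences -4.12 ± 0.23 and -1.42 ± 0.21, adjusted p = 2.6e-11 and 2.8e-05). Hypoxia targets were higher than with LPS in 29 of 42 genes and lower in 2, but higher than with TNF in 15 and lower in 10. Vegfa was at 213 ± 23 CPM with TNF, above its 60.4 ± 15.3 CPM with hypoxia (adjusted p = 7.3e-08), and Hif1a at 1669.7 ± 186 CPM with TNF, above its 366 ± 16 CPM with hypoxia (adjusted p = 1.5e-14). Glycolysis genes were higher than with TNF in 8 of 29 and lower in 4, and higher than with LPS in 16 and lower in 1. Pdk1 was at 78.8 ± 6.5 CPM with TNF and 64.7 ± 3.5 CPM with LPS, below hypoxia in both (adjusted p = 6.5e-10 and 9.2e-11).

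Immune and stress gene groups were also set against the TNF and LPS groups, where 20.1% of all tested genes were higher and 18.9% lower with hypoxia than with TNF, and 15.5% higher and 14.4% lower than with LPS. MHC class II genes were higher with hypoxia than with TNF in 10 of 12 and than with LPS in 11 of 12, and lower in 0. Type I interferon genes were lower with hypoxia than with TNF in 23 of 30 and than with LPS in 23 of 30, and higher in 0. Cytokines and chemokines were lower than with TNF in 17 of 25 and than with LPS in 16, and higher in 3 each. NF-kappaB genes were lower than with TNF in 16 of 22 and higher in 2, and lower than with LPS in 7 and higher in 4 (median log2 difference -0.02). Il1b was at 1688 ± 159.9 CPM with TNF against 6.49 ± 2.62 CPM with hypoxia. Unfolded protein response genes were higher than with TNF in 16 of 19 and than with LPS in 17, and lower in 0, and the 7 well-counted mitochondrial transcripts were lower than in both. Histone demethylases were higher than with LPS in 17 of 20 and lower in 0, and higher than with TNF in 6 and lower in 2.

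Cell cycle genes fell almost throughout. Of 49 tested, 42 fell and 1 rose, against 11.8% lower and 13.5% higher of all tested genes. The median log2 fold change of the list was -2.17. Mki67, a marker of cycling cells, went from 338, 378 and 253 CPM to 65.3, 52.1 and 41.5 CPM (6.09-fold lower, adjusted p = 2.8e-08). Top2a, a topoisomerase needed in mitosis, fell from 459, 456 and 369.7 CPM to 63.1, 71.4 and 32.4 CPM. The replicative helicase subunits Mcm2 to Mcm7 all fell, from 1.85-fold (Mcm6) to 12.5-fold (Mcm2). Cyclin Ccnd1 fell 2.51-fold, while Ccnd2, Ccnd3 and Ccne1 were not called. The gene that rose was Cdkn1b, which encodes the cell cycle inhibitor p27, from 22.1, 21.2 and 17 CPM to 67.7, 78.8 and 73.7 CPM (adjusted p = 9.3e-09), and Cdkn1a, encoding p21, was at 57.8 CPM and 122 CPM without passing the test (adjusted p = 0.095). When only these 2 groups were fitted Cdkn1a was called (adjusted p = 1.04e-06, and 3.73e-06 with a replicate block added), and 2 genes of the list rose. Most of the list was also lower with TNF and with LPS, while interleukin-1 beta was not tested against IFNg. Against IFNg alone, 42 of the 49 were lower and 3 higher with TNF (median -3.01). Of all 11563 tested genes, 2614 were lower and 2560 higher with TNF. With LPS 37 of the list were lower and 1 higher (median -1.83), against 1164 lower and 1184 higher of all tested genes. The direct comparison with TNF gave 26 genes of the list higher with hypoxia and 6 lower, and that with LPS 4 higher and 16 lower. Over all tested genes 20.1% were higher and 18.9% lower than with TNF, and 15.5% and 14.4% than with LPS.

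Enzymes that themselves need oxygen to remove histone or DNA methyl groups rose in 11 of 20 tested cases and fell in 0 (8 higher under RPKM totals). Over all tested genes 13.5% were higher and 11.8% lower. Kdm6b, a demethylase of histone H3 lysine 27, went from 14.9, 17.8 and 13.9 CPM to 195, 171 and 158 CPM (11.2-fold, adjusted p = 3.4e-14). Kdm5b, which acts on lysine 4, went from 25.1, 27.7 and 26.6 CPM to 235, 244 and 239.5 CPM (9.05-fold, adjusted p = 4.8e-14). Kdm4b, Kdm3a and Kdm7a rose 3.25-fold, 2.97-fold and 2.64-fold, whereas Kdm6a, Kdm3b and Kdm2b were not called.

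Chaperones and degradation factors of the endoplasmic reticulum rose in 13 of 19 tested cases and fell in 0 (median 0.50; 7 higher under RPKM totals and 8 without hypoxia replicate 2). Hspa5, the chaperone BiP, was at 2076 CPM and 3535 CPM (adjusted p = 6.3e-06), and Hsp90b1 rose 1.9-fold. Genes under the amino acid response factor Atf4 did not share a direction, with 8 of 20 higher and 6 lower. The counts in this paragraph are to be read against the 13.5% higher and 11.8% lower of all tested genes. Asns, asparagine synthetase, fell from 26.8, 22.6 and 19.5 CPM to 6.69, 5.02 and 1.93 CPM (adjusted p = 8.4e-07), and Slc7a5, an amino acid transporter, from 4.6 CPM to 0.681 CPM, while Trib3 and Psat1 rose 3.05-fold and 2.39-fold. Atf4 was at 184 CPM and 211 CPM (adjusted p = 0.24). Of 21 oxidative stress and heme genes, 3 rose and 4 fell, the fallen being 9 under RPKM totals and 2 without hypoxia replicate 2; Hmox1 rose while Nqo1, another target of the same regulator Nfe2l2, fell from 2.31 CPM to 0.206 CPM (adjusted p = 0.0074). Of 11 iron genes 4 fell and 0 rose, among them Tfrc and the endosomal iron reductase Steap3 (2.23-fold).

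Lipid genes went in both directions. The lipid and autophagy counts here are to be read against the 13.5% higher and 11.8% lower of all tested genes. In cholesterol synthesis 5 of 23 rose and 3 fell (3 higher under RPKM totals and without IFNg replicate 1 or 3 or hypoxia replicate 1 or 3; 5 lower under RPKM totals). Of 29 lipid droplet and fatty acid genes 8 rose and 4 fell (5 and 7 under RPKM totals; 5 higher without IFNg replicate 3), with the fatty acid synthase Fasn lower by 2.11-fold and the droplet coat gene Plin2 at 498 CPM and 544 CPM (adjusted p = 0.47). Lipid efflux genes had 1 of 11 higher, Abca1 (1.7-fold), and 3 lower. In autophagy 5 of 18 rose and 2 fell (3 and 4 under RPKM totals; 1 lower without IFNg replicate 2 or hypoxia replicate 1), and Pink1, the kinase that marks damaged mitochondria, rose from 68.8 CPM to 169 CPM (adjusted p = 2.7e-07).

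Surface and secreted products of macrophages also went in both directions, beside 13.5% higher and 11.8% lower of all tested genes. In the migration and adhesion list 12 of 24 rose and 2 fell (4 lower under RPKM totals); beside Cxcr4, the chemokine receptor Ccr1 went from 12, 12.9 and 13.9 CPM to 81.4, 97.1 and 91.8 CPM (6.97-fold, adjusted p = 2.5e-12) and Plaur rose 3.36-fold. Of 16 matrix proteases and inhibitors 6 rose and 1 fell. Mmp12 and Mmp13, which cleave elastin and collagen, went from 6.34 CPM to 68.3 CPM (adjusted p = 2.5e-12) and from 12.6 CPM to 102 CPM (adjusted p = 2.6e-09), and Plau, the urokinase activator, fell 2.88-fold. Of 23 genes of alternatively activated or resident macrophages 9 rose and 3 fell (5 and 6 under RPKM totals). Mrc1, the mannose receptor, fell from 74.9, 52.4 and 85.6 CPM to 14.3, 17.2 and 10.3 CPM (adjusted p = 1.7e-05), while F13a1 rose from 6.52 CPM to 54.3 CPM and the interleukin-4 receptor Il4ra rose 2.57-fold. Of 30 lysosomal genes 12 rose and 3 fell, or 7 and 9 under RPKM totals, with the cathepsin Ctsh 2.18-fold higher.

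**Figure D5:**
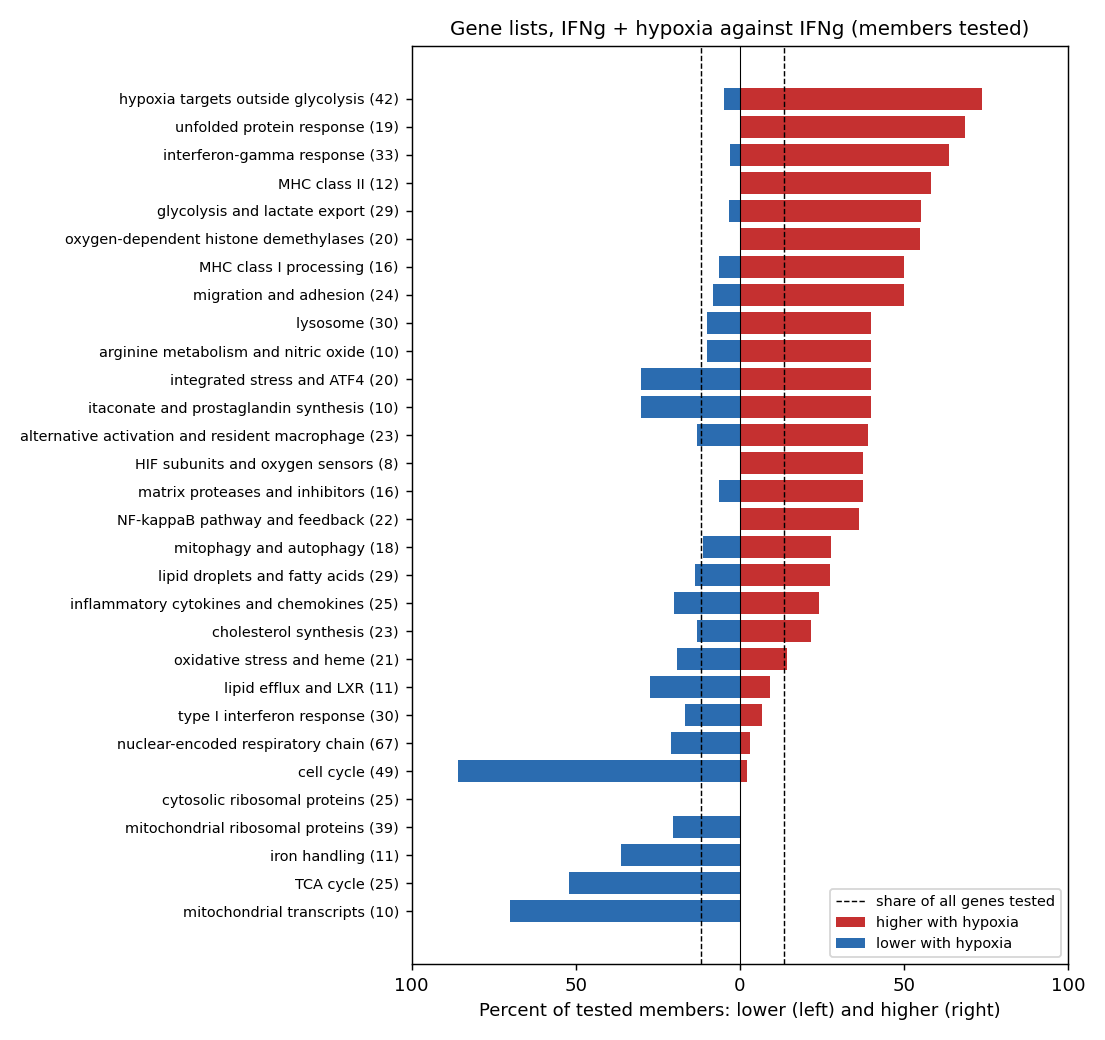
For each of the 30 gene lists, bars give the percent of tested members (number in brackets) that were lower (left) or higher (right) with hypoxia at an adjusted p under 0.05; dashed lines mark the shares of all tested genes, 11.8% lower and 13.5% higher. Hypoxia targets (31 of 42) extend furthest to the right and cell cycle genes (42 of 49) furthest to the left.

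Macrophage markers were abundant in all 6 libraries, as the labelled cell type requires. The summed level of 12 macrophage markers was 24129.6 to 27460.3 CPM in the IFNg libraries and 31644 to 32573 CPM with hypoxia, with 6 markers higher and 1 lower. Cd3e, Cd3d, Cd3g and Cd8a of T cells, Ms4a1, Cd79a and Pax5 of B cells, and Ncr1, Klrb1c, Gzma, Prf1 and Eomes of NK cells had no count in the 6 libraries. The other members of these lists gave the summed levels below, and which cells supplied those counts was not tested. That of the T cell list was 43.1 to 60.4 CPM and 88.6 to 108 CPM, that of the B cell list 505 to 579 CPM and 249.6 to 283 CPM, mostly Ighm (534 and 247 CPM), which fell, while Cd79b was higher (5.52 and 14.3 CPM, adjusted p = 0.038, a call lost under RPKM totals and in each of the 6 fits that leave out a library), and that of the NK cell list 76.9 to 95.6 CPM and 56.4 to 67.1 CPM. The neutrophil list, of which 0 of 10 tested markers were called by edgeR (3 lower at an unadjusted p under 0.05 and 1 lower by DESeq2), summed to 109 to 131 CPM and 67.5 to 95.9 CPM, and the dendritic cell list, with 0 of 6 called by edgeR (0 at an unadjusted p under 0.05 and 1 higher by DESeq2), to 90.4 to 95.1 CPM and 116 to 147 CPM. Megakaryocyte markers summed to 21.8 to 28.9 CPM and 50.1 to 71.4 CPM, with Pf4 called higher, and endothelial markers to 62.8 to 82.6 CPM and 85.1 to 105 CPM, with 1 higher and 1 lower. Fibroblast markers summed to 5.42 to 7.66 CPM and 7.24 to 12.1 CPM. Mast cell markers summed to 0.73 to 2.32 CPM and 0 to 0.511 CPM, and erythroid markers to 0 to 0.104 CPM and 0 to 0.0662 CPM. The part of these marker differences in any result was not tested.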

How the data were processed

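Total RNA of the BMDMs was made into libraries with a TruSeq Stranded mRNA kit and sequenced single-end on a NovaSeq instrument, per the labels' protocols. Reads were aligned with GSNAP to mm10, per the submitters' processing notes; versions, the counting program, its annotation and its strand setting: not given in the sources used here. Per the file headers, the deposited tables give for each of 22598 Ensembl genes a raw read count, a width and an RPKM value made by the authors. The widths were within 5% of the coding length for 91.0% of the genes with one. Symbols came from GENCODE M21 and matched 22457 identifiers; where rows shared a symbol, the widest row carried it, a choice made after seeing the files. The authors' deposited RPKM values imply a read total per library, of which 51.7% to 54.3% was counted in genes in the 6 libraries, and served as an alternative scaling (RPKM totals).

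Counts were tested with edgeR 4.0.16 (R 4.3.3, limma 3.58.1): TMM factors, filterByExpr, 1 model with a mean for each of the 6 groups over all 18 libraries, robust quasi-likelihood tests and Benjamini-Hochberg adjustment over 11563 genes, called at an adjusted p under 0.05. The code was tested on simulated data. The genes named are the 15 largest rises and 15 largest falls (called, at least 5 CPM in the higher group, groups not overlapping), all members of the oxygen sensor, hypoxia target and glycolysis lists, and, of the other lists, preset key genes and up to 5 called members with the largest change. Other genes are named by choice after their values were seen (among them Cdkn1b, Ccl5, Irf8, Gbp2b, mt-Co1 and mt-Cytb). The members and the 30 lists (746 genes) were chosen with earlier results of these data known; a few of their genes are not reported here. Alternatives were DESeq2 1.42.0, its size factors, RPKM totals, no filter, a filter of at least 50 counts, only the groups compared, a replicate block, and leaving out each library.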

Additional observations from a re-analysis of the deposited data

How the results depend on the processing

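The number of genes changed between hypoxia plus IFNg and IFNg was 2918. It was 3148 by DESeq2, 2923 with DESeq2's size factors, 3452 under RPKM totals, 2845 without a filter, 2935 with a stricter one, 3606 with only these 2 groups fitted, and 2252 to 2449 when 1 library was left out. The one setting that moved the split by over 1.5 times was RPKM totals, with 888 genes higher and 2564 lower. Against TNF the number changed was 3896 to 4160 with 1 library left out and 4375 to 4725 otherwise; against LPS it was 2829 to 3233 and 3255 to 3776. Same-numbered hypoxia and IFNg libraries hardly deviated together (correlations of 0.0087, 0.039 and 0.026), although each library correlated best with its own number, so the numbers were not taken as pairs; a replicate block gave 3112 genes changed against IFNg, 4657 against TNF and 3673 against LPS, and 3563 when only the 2 groups were fitted with the block, an alternative chosen after seeing the data. Of 300 named genes tested, 233 were called and 199 of these stayed called in every setting that gave a value. The other 34 fell short of the threshold in at least 1 setting, 2 of them (Irf1 and Sqstm1) under RPKM totals alone, and 0 reversed. Of the 67 not called, 12 were called in at least 1 setting. Where 0 members of a list were called in 1 direction, edgeR's unadjusted p was under 0.05 for 0 members, except 1 higher iron gene, and DESeq2 called 0; marker lists are given with their values. Genes with near-identical copies, of which several were at or near 0 in every library, are beyond what these counts can measure.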

Other observations

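The genes in this section were picked after their values were seen. Outside the 30 lists, 176 genes of at least 50 CPM with hypoxia were at least 2-fold higher than with IFNg alone, and 59 of these were also at least 2-fold higher than with IFNg plus TNF and with IFNg plus LPS, by edgeR at an adjusted p under 0.05 in each comparison. Selenbp1, a selenium-binding protein, went from 17.1, 14.7 and 21.4 CPM with IFNg to 299, 229 and 268 CPM with hypoxia (log2 fold change 3.91 ± 0.24, adjusted p = 8.3e-12) and was at 32.3 ± 8.4 CPM with TNF and 6.37 ± 1.95 CPM with LPS (SD, n = 3 each). Cd244a, a receptor of the SLAM family known from NK cells, went from 6.2, 8.06 and 6.49 CPM to 104, 98.2 and 105 CPM (adjusted p = 1.1e-10). Upp1, uridine phosphorylase, rose from 36.3, 38.7 and 35.7 CPM to 782, 716 and 688 CPM (19.8-fold). The metallothioneins Mt1 and Mt2, which bind zinc and copper, rose 8.25-fold and 24.3-fold. Bsg, the chaperone of the lactate exporter Slc16a3, rose from 237, 259 and 265 CPM to 1416, 1259 and 1132 CPM (adjusted p = 5.1e-11), and P4hb, the partner subunit of P4ha1 and P4ha2, from 777, 839 and 864 CPM to 2904, 2749 and 2553 CPM (adjusted p = 6.1e-13). Tnfsf13b, which encodes the B cell factor BAFF, rose 3.59-fold. Tlr7, the endosomal receptor for single-stranded RNA, fell from 482, 510.4 and 554 CPM to 172, 247 and 219 CPM (adjusted p = 4.1e-05).

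Nuclear genes listed for transcription of the mitochondrial genome and upkeep of its RNA were also examined, with the matrix protease Lonp1 among them. Of 14 tested, 1 was higher and 1 lower, against 13.5% higher and 11.8% lower of all tested genes, with a median log2 fold change of -0.32. The packaging and transcription factor Tfam was at 11.4, 14.8 and 12 CPM and 10.4, 10.5 and 14.2 CPM (log2 fold change -0.12 ± 0.28, adjusted p = 0.8), and the RNA polymerase Polrmt at 29.4, 26.5 and 26.7 CPM and 24.5, 22.1 and 13.6 CPM (-0.46 ± 0.28, adjusted p = 0.25). The matrix protease Lonp1 was the gene that rose, from 72.9, 69.2 and 83.8 CPM to 166, 151 and 178 CPM (adjusted p = 6.8e-06), and the RNA-degrading Pnpt1 the gene that fell, from 66, 64.5 and 54 CPM to 35.4, 32 and 35.4 CPM (adjusted p = 2.0e-04).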
